A study of Homo sapiens with 29 samples.

Results

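The 8 genes MANF, CDNF, CRELD2, SDF2L1, HSPA5, HSP90B1, HYOU1 and DNAJB9 encode chaperones and secreted factors that cells make when the endoplasmic reticulum (ER) is under stress. They were followed library by library in a human pancreatic β-cell line. They were picked by name from a table of 66025 gene entries, and results for mutant medium against the other media, known from earlier work on these data, had a part in that choice. Values of those 2 comparisons are therefore given as a description.

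When unfolded proteins build up in the ER, the sensors IRE1, PERK and ATF6 start the unfolded protein response. ATF6 and XBP1, the transcription factor made through IRE1, raise chaperone genes, while PERK slows translation and raises ATF4 and its targets. Insulin-making cells pass large amounts of proinsulin through the ER, and MANF is known to be needed for β-cell survival in mice.

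The RNA came from EndoC-βH1, an insulin-secreting cell line, kept for 10 days in medium taken from HEK293 cells, which stem from embryonic kidney. There were 9 libraries with medium from cells that stably overexpressed an empty vector (EV), 10 with medium from cells overexpressing WT-CEL (WT) and 10 with medium from cells overexpressing MUT-CEL (MUT). The product of CEL is carboxyl ester lipase, which acinar cells of the pancreas secrete to digest lipids, and the sources used here do not name the mutation. Each medium was EndoC-βH1 medium that had been on HEK293 cells for 3 hours, was filtered and brought to equal protein, and was replaced daily. Per the labels the constructs were in the HEK293 cells, and the β-cells received the medium. The labels name 3 batches without saying what a batch was. There were 3 libraries of each medium in every batch, except for 4 WT and 4 MUT libraries in batch 1.

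Libraries held 26.2 to 40.2 M estimated counts. Values are CPM, a gene's counts per M counts of its library, after TMM scaling, which corrects for differences in library composition. All 12 β-cell markers examined had a mean of at least 1 CPM. Among 9 acinar markers 2 reached that level, and PNLIP and AMY2A were at 0 in every library. The summed level of 7 kidney and HEK293 markers was 27.4 to 35.3 CPM in EV, 27.4 to 35.8 in WT and 28.0 to 36.3 in MUT libraries. The summed level of 8 markers of other islet cells was 747 to 951 CPM in batch 1, 1443 to 1795 in batch 2 and 1673 to 1832 in batch 3. TTR made up most of that sum, at a mean of 1198 CPM over all libraries, so the sum says little about the other markers. Whether libraries that share a batch and a medium were separate cultures is not stated, and p-values reflect only the spread among libraries, part of which may be technical.

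Promoter sequences show what several of these genes have in common outside the measurements. ATF6 and XBP1 are known to act through ER stress response elements. The ERSE (CCAAT, 9 free bases, then CCACG), the ERSE-II (ATTGG, 1 free base, then CCACG) and the core of the UPRE (TGACGTGG) were searched on both strands in the 250 bases before each RefSeq transcription start (GRCh38.p14). An exact ERSE lay in the window of HSPA5, HSP90B1 and CRELD2, and an exact ERSE-II in that of HYOU1 and SDF2L1, 5 of the 8 genes. Among all 35116 promoters, 0.074% held an exact ERSE, 0.0513% an exact ERSE-II and 0.125% either. The 8 genes were picked as ER stress genes and the motifs are ER stress elements, so the count of matches is a description. In the stretches below capitals mark the fixed bases of the exact match, and each is written along the strand of its gene.
HSPA5: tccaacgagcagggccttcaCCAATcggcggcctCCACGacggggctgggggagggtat
CRELD2: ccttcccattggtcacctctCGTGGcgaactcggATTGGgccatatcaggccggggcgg
SDF2L1: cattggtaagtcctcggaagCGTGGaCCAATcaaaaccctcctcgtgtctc
HYOU1: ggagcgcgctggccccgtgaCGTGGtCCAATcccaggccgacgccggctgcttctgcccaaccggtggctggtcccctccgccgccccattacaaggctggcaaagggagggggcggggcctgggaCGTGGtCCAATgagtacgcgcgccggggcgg
HSP90B1 first site: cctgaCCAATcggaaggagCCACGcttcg
HSP90B1 second site: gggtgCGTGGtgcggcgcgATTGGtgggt

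The HSPA5 stretch is chr9:125241371-125241429 on the minus strand and holds the ERSE on the gene's own strand. The CRELD2 stretch, chr22:49918534-49918592 on the plus strand, holds it on the other strand. The SDF2L1 stretch is chr22:21642094-21642144 on the plus strand. The HYOU1 stretch, chr11:119057254-119057410 on the minus strand, holds ERSE-II in 2 copies. The first copy overlaps a UPRE core, which 0.612% of promoters hold and no other gene of the 8 does. The HSP90B1 sites, shown short because annotated exons overlap them, are chr12:103930211-103930239 and chr12:103930316-103930344 on the plus strand.

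The window of MANF held no exact ERSE or ERSE-II. Its nearest form was an ERSE-II with 1 base changed at chr3:51385173-51385193 on the plus strand, and 1.14% of promoters held an ERSE-II with at most 1 change. In the site below capitals mark the bases that match.
MANF: cggctCcTGGaCCAATgggga
The windows of DNAJB9 and CDNF held no match to any of the 3 motifs, nor to an ERSE or ERSE-II with 1 base changed. A CCAAT box was present in all 8 windows and in 32% of all promoters. A match is a run of letters, not a measured site, and a missing match says nothing about the factors.

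Levels were compared between genes as CPM per kilobase of the principal transcript (mean ± SD, n = 29). HSP90B1, which encodes the ER form of HSP90 (GRP94), was highest at 456 ± 66.8 CPM per kilobase. HSPA5 (BiP, the ER's HSP70 and the partner of the 3 stress sensors at rest) came next at 179 ± 42.7, and MANF, a small secreted factor that binds BiP, at 88.4 ± 20.7. SDF2L1 (a partner of the BiP cochaperone ERdj3) was at 32.6 ± 8.05 and CRELD2 (a secreted protein of the ER) at 31.4 ± 3.99. The means of SDF2L1 and CRELD2 lay within each other's SD. These SDs include the batch differences, which held 82.6% of the variation for SDF2L1 and 35.6% for CRELD2. The order of these genes within each batch was not compared. HYOU1 (GRP170, a nucleotide exchange factor of BiP) was at 33.6 ± 3.33 in the entry used. That level may be too low, since another entry held the same counts. DNAJB9 (ERdj4, a BiP cochaperone that represses IRE1) stood at 14.3 ± 3.43. CDNF, the paralogue of MANF, was lowest at 1.14 ± 0.258. All 8 genes passed the filter on low counts, but CDNF had only 30 to 84 estimated counts per library.

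In GENCODE release 29 (GRCh38) MANF is at chr3:51385047-51389397 on the plus strand with 4 exons in its principal transcript, and CDNF at chr10:14819250-14838575 on the minus strand with 6. CRELD2 is at chr22:49918167-49927540 (plus, 10 exons) and SDF2L1 at chr22:21642261-21644298 (plus, 3 exons). HSPA5 is at chr9:125234853-125241330 (minus, 8 exons) and HSP90B1 at chr12:103930107-103953645 (plus, 18 exons). HYOU1 is at chr11:119044189-119057202 (minus, 26 exons) and DNAJB9 at chr7:108569568-108574850 (plus, 3 exons). All values below are per gene. The counts of HYOU1 were repeated in full by 1 other entry of the table. Reads of that gene may be divided between the entries, so its level may be understated.

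**Figure D1:**
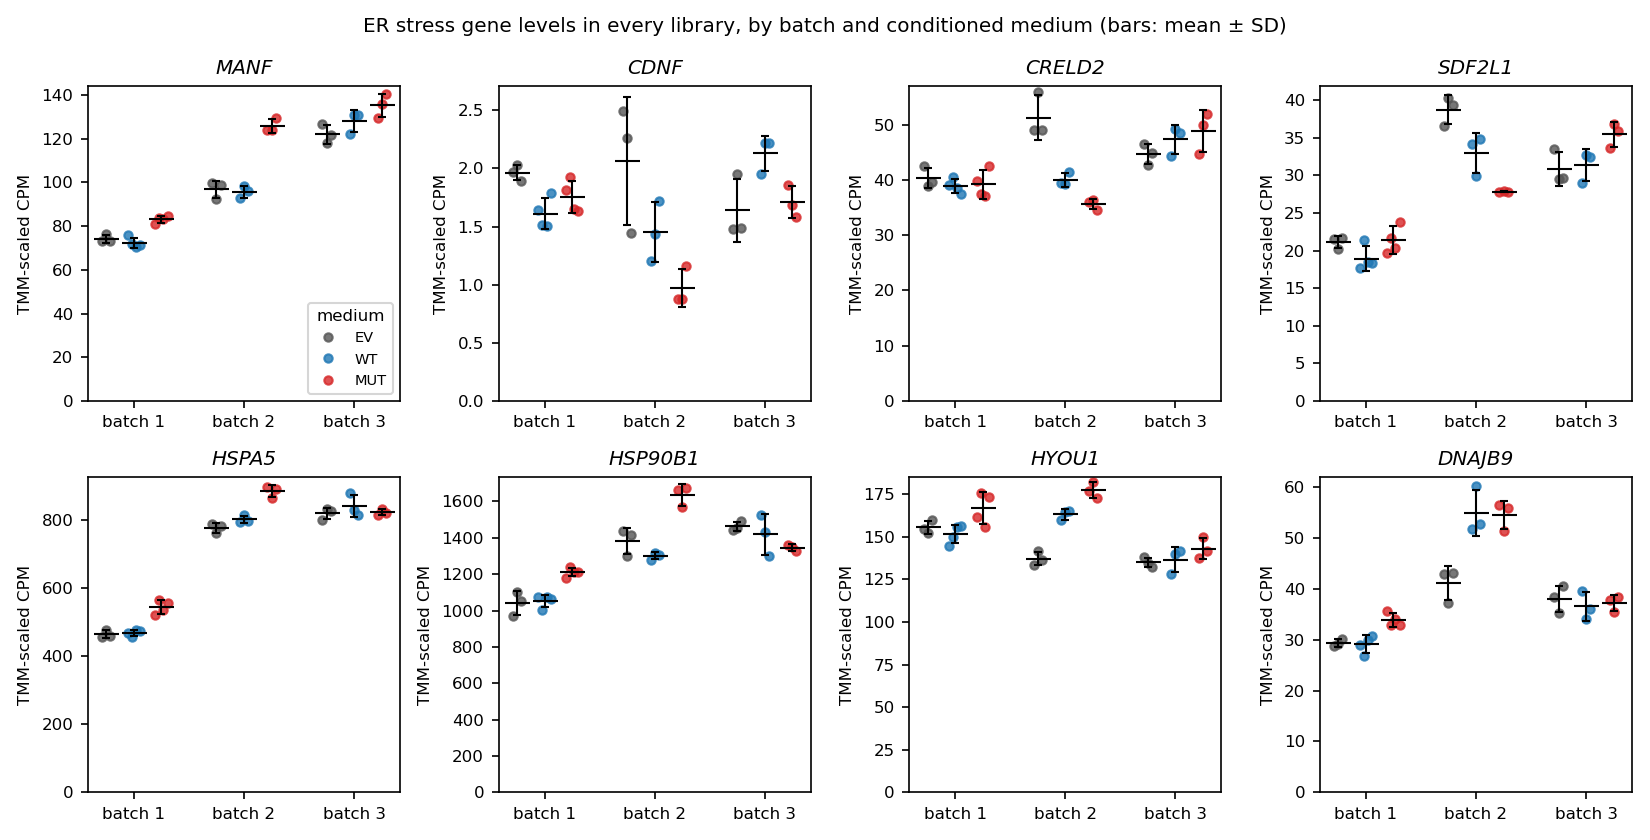
TMM-scaled CPM (vertical axes, from 0) of each of the 8 genes in every library, by batch and conditioned medium; long bars are means and short bars 1 SD. HSPA5 lay between 456 and 564 CPM in batch 1 and between 760.3 and 897 in the other 2 batches, while CRELD2 and SDF2L1 fanned out by medium in batch 2.

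MANF differed between the batches more than between the media. In batch 1 it was at 73.1, 73.1 and 76.3 CPM in EV libraries, at 70.5, 71.3, 71.6 and 75.8 in WT and at 80.8, 83.1, 83.8 and 84.5 in MUT. In batch 2 the EV libraries held 92.4, 98.7 and 99.6, the WT libraries 92.8, 96.1 and 98.4, and the MUT libraries 124, 124 and 129. In batches 1 and 2 every MUT library was above every EV and WT library, and EV and WT overlapped. In batch 3 EV libraries held 118, 122 and 127, WT libraries 122, 131 and 131, and MUT libraries 129.5, 136 and 140.2. There MUT was above all EV libraries and overlapped WT. With batch in the model, MANF was 1.17-fold as high in MUT as in EV (log2 0.23 ± 0.04 SE) and 1.17-fold as high as in WT (log2 0.22 ± 0.04). In bulk RNA a difference in level per cell and a difference in the mix of cells cannot be told apart.

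CDNF, which like MANF is a secreted factor kept in the ER, did not follow its paralogue. In batch 2 it was at 1.45, 2.26 and 2.50 CPM in EV, at 1.21, 1.44 and 1.72 in WT and at 0.874, 0.875 and 1.16 in MUT. The MUT libraries there lay below all EV and WT libraries, the opposite order to MANF. In batch 3 the WT libraries were the high ones, at 1.95, 2.22 and 2.22, against 1.48, 1.49 and 1.95 in EV and 1.59, 1.69 and 1.86 in MUT. In batch 1 the EV libraries, at 1.90, 1.97 and 2.03, were above the 4 WT libraries, the highest of which was at 1.79, and overlapped the 4 MUT libraries, at 1.63 to 1.93. The MUT against EV difference with batch in the model was log2 -0.37 ± 0.14 SE.

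CRELD2 and SDF2L1 moved as a pair in batch 2. CRELD2 was at 48.9, 49.0 and 55.9 CPM in EV, at 39.2, 39.3 and 41.4 in WT and at 34.6, 36.0 and 36.3 in MUT. SDF2L1 was at 36.6, 39.4 and 40.4 in EV, at 30.0, 34.1 and 34.8 in WT and at 27.8, 27.9 and 28.0 in MUT. For both genes the order was EV, WT, MUT from high to low with no overlap between any 2 media. In batch 3 the order was turned: SDF2L1 was at 33.6, 35.9 and 36.9 in MUT, above the EV libraries (29.5, 29.6 and 33.5) and the WT libraries (28.9, 32.5 and 32.8). CRELD2 in batch 3 overlapped between all media, with 42.7 to 46.4 CPM in EV, 44.4 to 49.1 in WT and 44.6 to 51.9 in MUT. In batch 1 the media overlapped for both genes, CRELD2 between 37.0 and 42.5 CPM and SDF2L1 between 17.7 and 23.9. With batch in the model the MUT against EV differences were log2 -0.15 ± 0.06 SE for CRELD2 and -0.08 ± 0.07 for SDF2L1.

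HSPA5 was at 456, 459.7 and 478 CPM in the EV libraries of batch 1, at 457, 469, 474 and 477 in WT and at 522, 535, 557 and 564 in MUT. In batch 2 it was at 760.3, 781 and 789 in EV, at 794, 798 and 814 in WT and at 866, 892 and 897 in MUT. The MUT libraries were above all others in both batches, and in batch 2 the WT libraries were also above the EV libraries. In batch 3 the media overlapped, at 800.4, 826 and 831 in EV, 815, 830.2 and 878 in WT and 815, 822 and 832 in MUT. The MUT against EV difference with batch in the model was log2 0.15 ± 0.03 SE, 1.11-fold.

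HSP90B1 had a similar order in batches 1 and 2 and the opposite one in batch 3. In batch 1 it was at 973, 1055 and 1102 CPM in EV, at 1003, 1062, 1073 and 1074 in WT and at 1181, 1211, 1213 and 1237 in MUT. In batch 2 it was at 1298, 1414 and 1435 in EV, at 1280.3, 1305 and 1319 in WT and at 1567, 1664 and 1676 in MUT. In both batches every MUT library was above every EV and WT library. In batch 3 the MUT libraries, at 1328, 1349 and 1363, were below all EV libraries, at 1441, 1453 and 1492, and within the WT libraries, at 1299, 1431 and 1525. The difference with batch in the model was log2 0.12 ± 0.05 SE.

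HYOU1 separated the media in batch 2 alone. There it was at 133, 136 and 141 CPM in EV, at 159.5, 165 and 165 in WT and at 173, 177 and 182 in MUT, with no overlap between any 2 media. In batch 1 it was at 152, 155 and 159.5 in EV, 145, 149.8, 156 and 156 in WT and 156, 162, 173 and 176 in MUT, and in batch 3 at 132 to 138, 128 to 141 and 138 to 149.6. Those 2 batches showed overlap between all media. The MUT against EV difference with batch in the model was log2 0.18 ± 0.04 SE, 1.13-fold.

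DNAJB9 overlapped between WT and MUT medium in batch 2 and was above EV in both. It was at 37.3, 42.9 and 43.1 CPM in EV, at 51.7, 52.7 and 60.1 in WT and at 51.4, 55.8 and 56.4 in MUT. In batch 1 MUT stood apart, at 32.8, 32.8, 34.1 and 35.7 against 28.7, 29.2 and 30.2 in EV and 26.7 to 30.8 in WT. In batch 3 the media overlapped between 34.1 and 40.4 CPM. The MUT against EV difference with batch in the model was log2 0.20 ± 0.06 SE.

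Over all batches 4 of the 8 genes (MANF, HSPA5, HYOU1 and DNAJB9, each higher) were past an adjusted p of 0.05 (edgeR's quasi-likelihood test, Benjamini-Hochberg over all genes) in MUT against EV, where 4.78% of all genes were and 2.75% were higher. In MUT against WT 1 gene, MANF, was past it, where 0.947% of all genes were. These comparisons bore on the choice of the genes, so nothing is read from the counts. The call of DNAJB9 lay just inside the threshold, and HSPA5 in MUT against WT (log2 0.12 ± 0.03 SE) just outside it. The 4 genes called in MUT against EV fell to 1 without EV library 1, 2 or 3 or MUT library 1 of batch 2, to 2 without MUT library 2 or 3 of batch 2, and to 0 without all of batch 2 (3 at an unadjusted p under 0.05). With 1 summed profile per batch and medium, edgeR called 0 in MUT against EV (2 at an unadjusted p under 0.05) and 0 in MUT against WT (1).

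WT against EV is not known to have had a part in the choice of the genes, although it shares its libraries with the other 2 comparisons. By edgeR 0 of the 8 genes were called over all batches, 0 had an unadjusted p under 0.05 and 0 were called by DESeq2. Of all genes 0.326% were called. The differences were log2 0.01 ± 0.04 SE for MANF, -0.17 ± 0.14 for CDNF, -0.12 ± 0.06 for CRELD2 and -0.13 ± 0.07 for SDF2L1. They were 0.03 ± 0.03 for HSPA5, -0.04 ± 0.05 for HSP90B1, 0.07 ± 0.04 for HYOU1 and 0.11 ± 0.06 for DNAJB9. The 95% interval of the fold was 0.953 to 1.06 for MANF and 0.975 to 1.07 for HSPA5, so larger differences lay outside the interval for these 2 genes. For CDNF it was wide, 0.735 to 1.08.

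**Figure D2:**
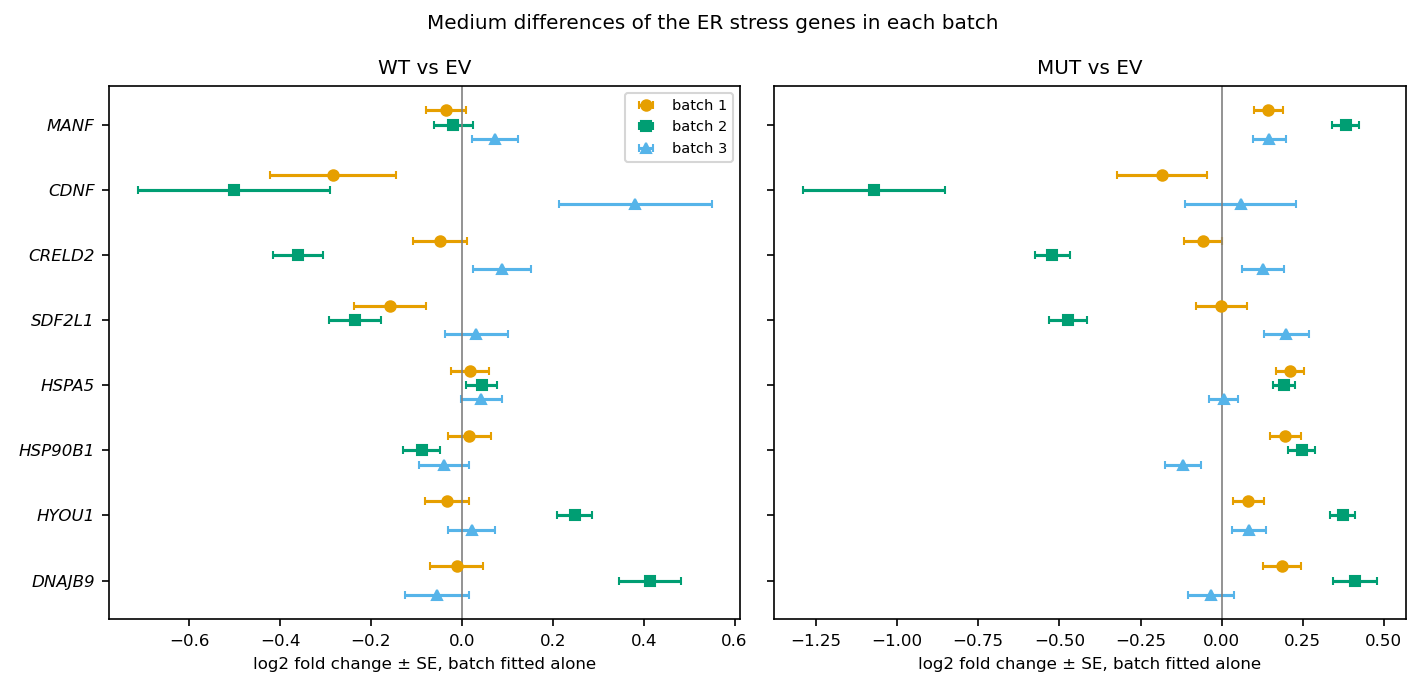
Log2 fold change (horizontal axes, points, bars ± 1 SE) of each gene for WT against EV and for MUT against EV, with each batch fitted alone; the 2 panels have different scales and share the EV libraries. In batch 2 CRELD2, SDF2L1 and CDNF lay below 0 and HYOU1 and DNAJB9 above 0 in both panels, while MANF lay at -0.02 for WT and 0.38 for MUT.

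Batch 2 alone gave another picture of WT against EV. HYOU1 rose (log2 0.25 ± 0.04 SE, edgeR adjusted p = 6.62e-05) and DNAJB9 rose (0.41 ± 0.07, edgeR adjusted p = 0.000191). CRELD2 fell (-0.36 ± 0.05, edgeR adjusted p = 4.87e-05) and SDF2L1 fell (-0.24 ± 0.06, edgeR adjusted p = 0.00375). These 4 of 8 stand beside 38.9% of all genes called in that batch, 19.6% higher and 19.3% lower. The 2 most abundant chaperones and MANF were at log2 0.04 ± 0.03 (HSPA5), -0.09 ± 0.04 (HSP90B1) and -0.02 ± 0.04 (MANF) and did not pass. In batches 1 and 3 alone edgeR called 0 of the 8 for WT against EV, where 0.0143% and 0.00981% of all genes were called, and 0 and 1 had an unadjusted p under 0.05.

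For MUT against EV the batches differed in direction as well as in size. In batch 2 all 8 genes were past the threshold, where 47.8% of all genes were, 24.1% higher and 23.8% lower. MANF (log2 0.38 ± 0.04 SE), HSPA5 (0.19 ± 0.03), HSP90B1 (0.25 ± 0.04), HYOU1 (0.37 ± 0.04) and DNAJB9 (0.41 ± 0.07) were higher. CDNF (-1.07 ± 0.22), CRELD2 (-0.52 ± 0.05) and SDF2L1 (-0.47 ± 0.06) were lower. In batch 1 HSPA5 (0.21 ± 0.04) was the 1 gene past it, where 1.4% of all genes were. That call rests on robust estimation of the spread in edgeR: without it 0 of the 8 were past the threshold and 4 had an unadjusted p under 0.05, and the count over all genes went from 294 to 3. In batch 3 edgeR called 0 of the 8, where 0.049% of all genes were called, and 3 had an unadjusted p under 0.05. There HSPA5 stood at 0.01 ± 0.05 and HSP90B1 at -0.12 ± 0.06. MANF was at 0.14 ± 0.04 in batch 1 and 0.15 ± 0.05 in batch 3.

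The interaction of medium and batch, tested over all 29 libraries, was past the threshold for 8 of 8 genes in MUT against EV (42.4% of all genes), for MANF, SDF2L1, HSPA5 and HSP90B1 in MUT against WT (27.1%) and for CDNF, CRELD2, HYOU1 and DNAJB9 in WT against EV (23.2%). The first count belongs to a comparison that bore on the choice of the genes, as does the second, and is a description. Without batch 2 edgeR called the interaction for 2 genes in MUT against EV, for 0 in MUT against WT (3 at an unadjusted p under 0.05) and for 0 in WT against EV (1 at an unadjusted p under 0.05).

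Against WT medium, MUT medium in batch 2 went with higher MANF (log2 0.40 ± 0.04 SE), HSP90B1 (0.34 ± 0.04), HSPA5 (0.15 ± 0.03) and HYOU1 (0.13 ± 0.04) and with lower SDF2L1 (-0.24 ± 0.06) and CRELD2 (-0.16 ± 0.06). DNAJB9 stood at -0.00 ± 0.07 and CDNF at -0.57 ± 0.23. These 6 genes past the threshold stand beside 33.1% of all genes, 16.8% higher and 16.4% lower. In batch 1 HSPA5 (0.19 ± 0.04) was the 1 gene past it, where 0.277% of all genes were, and without robust estimation 0 were. In batch 3 edgeR called 0, where 1.22% of all genes were called, and 1 had an unadjusted p under 0.05.

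The share of counts from mitochondrial genes moved with the groups in some batches. In batch 1 it was 7.69% in EV, 7.21% in WT and 6.20% in MUT libraries (means). In batch 2 it was 5.03%, 4.01% and 5.07%. In batch 3 it was 4.43%, 4.19% and 4.76%. The part of this share in the differences between media and between batches was not tested.

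Markers of cell types also moved with the media in batch 2. Of the 12 β-cell markers, 10 were called in MUT against EV (5 higher, 5 lower), 11 in WT against EV (9 higher, 2 lower) and 10 in MUT against WT (3 higher, 7 lower), beside 47.8%, 38.9% and 33.1% of all genes. Their summed level was 14292 to 15980 CPM in EV, 12036 to 12651 in WT and 11774 to 12348 in MUT libraries of that batch. INS made up most of that sum, at a mean of 11654 CPM over the 29 libraries. The sum was lower in WT than in EV although more markers were called higher than lower there. Of 7 tested markers of other islet cells, 5, 3 and 3 were called in the same order of comparisons, and the sum of that list was 1622 to 1638 CPM in EV, 1758 to 1795 in WT and 1443 to 1527 in MUT. All 3 tested ductal markers were called in MUT against EV (2 higher, 1 lower), 2 in WT against EV (2 higher) and 1 in MUT against WT (1 lower). The sum of that list was 53.7 to 56.4 CPM in EV, 54.9 to 61.1 in WT and 38.4 to 43.6 in MUT. KRT19 made up most of it, at a mean of 45.9 CPM over the 29 libraries. Of 5 tested kidney and HEK293 markers, 3, 2 and 2 were called, and their sum was 29.2 to 30.9 CPM in EV, 27.6 to 32.5 in WT and 32.3 to 33.5 in MUT. The summed level of 6 immune and endothelial markers was 126 to 135 CPM in EV, 59.0 to 62.6 in WT and 37.0 to 37.9 in MUT. Nearly all of that sum was CD68, a gene of lysosomes that macrophages express highly, at 126 to 134 CPM in the EV libraries, and the other 5 markers reached at most 0.211 CPM in any of the 29 libraries. The 7 fibroblast and stellate markers summed to 2.44 to 3.02 CPM in EV, 5.83 to 7.36 in WT and 6.07 to 6.74 in MUT. The 9 acinar markers summed to 25.9 to 29.4, 22.4 to 23.5 and 22.3 to 24.4 CPM. The part of these markers in the batch 2 differences of the 8 genes was not tested.

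Batch differences were larger than medium differences for most of the 8 genes. HSPA5 was 1.67-fold higher in batch 2 than in batch 1 (log2 0.74 ± 0.03 SE, edgeR adjusted p = 1.02e-18) and 1.68-fold higher in batch 3 than in batch 1. MANF rose from batch to batch, 1.38-fold from batch 1 to 2 (log2 0.47 ± 0.04, edgeR adjusted p = 6.46e-13) and 1.22-fold from batch 2 to 3 (0.28 ± 0.04, edgeR adjusted p = 3.01e-07). SDF2L1, DNAJB9 and HSP90B1 were also higher in batch 2 than in batch 1, by log2 0.69, 0.70 and 0.38. These 5 of 8 genes stand beside 65.4% of all genes called between the 2 batches, and beside 33.1% of all genes that were higher in batch 2.

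HYOU1 went its own way between batches. With medium in the model, it stood at log2 0.01 ± 0.04 in batch 2 against batch 1. That value averaged media that moved in different directions. In EV its mean went from 155 CPM in batch 1 to 137 in batch 2. It went from 152 to 163 in WT and from 167 to 177 in MUT. HYOU1 fell in batch 3, by 0.19 on the log2 scale against batch 1 (edgeR adjusted p = 9.36e-05) and by 0.20 against batch 2. DNAJB9 was 0.28 above batch 1 in batch 3 and fell by 0.42 on the log2 scale from batch 2 to batch 3. CRELD2 rose by 0.25 from batch 1 to batch 3 and by 0.16 from batch 2 to batch 3. Of the 8 genes, 7 were called between batches 3 and 1, where 55.1% of all genes were, and 4 between batches 3 and 2, where 43.3% were. With 1 summed profile per batch and medium these counts were 4 and 1, and 5 for batch 2 against batch 1. Of 7 tested markers of other islet cells, 4 were called higher and 2 lower in batch 2 than in batch 1. In batch 3 against batch 1, 3 were called higher and 2 lower. Of all genes 65.4% and 55.1% were called in these comparisons. The part of these markers in the batch differences was not tested.

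**Figure D3:**
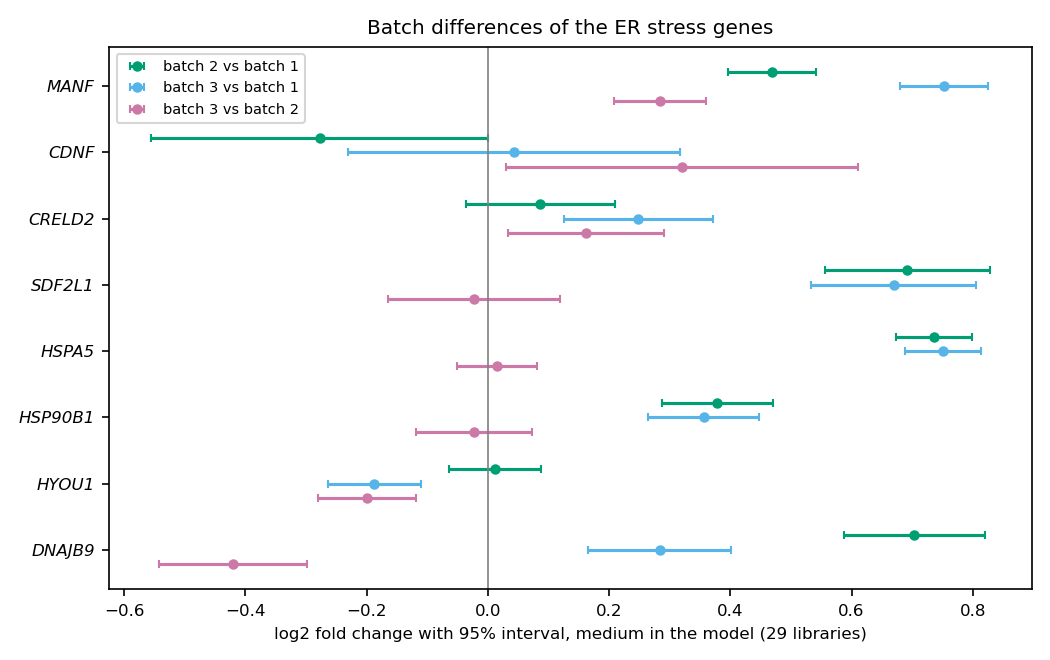
Log2 fold change between batches (horizontal axis, points, bars are 95% intervals) for each of the 8 genes over 29 libraries with medium in the model. HSPA5, SDF2L1 and HSP90B1 stood at 0.01, -0.02 and -0.02 in batch 3 against batch 2, values that averaged media moving in different directions. SDF2L1 means went from 38.8 to 30.9 CPM in EV, 33.0 to 31.4 in WT and 27.9 to 35.5 in MUT. Those of HSP90B1 went from 1382 to 1462, 1301 to 1419 and 1636 to 1346. Those of HSPA5 went from 777 to 819, 802 to 841 and 885 to 823. MANF was highest in batch 3, and DNAJB9 and HYOU1 were lower in batch 3 than in batch 2.

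Of the variation of log2 CPM over the 29 libraries, the batch held 94.7% for HSPA5, 86.0% for MANF, 82.6% for SDF2L1, 79.3% for DNAJB9 and 70.2% for HSP90B1. It held 42.3% for HYOU1, 35.6% for CRELD2 and 19.2% for CDNF. Differences between media that varied from batch to batch held 39.7% for CRELD2 and about as much for CDNF, the 2 largest such shares of the 8. The medium by itself held most for HYOU1, 28.7%, followed by CDNF at 17.8%. What remained within a batch and medium was 0.642% for HSPA5, 1.31% for MANF and 23.0% for CDNF.

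Libraries of the same batch and medium still differed, and the genes did not deviate together as 1 group. The correlation of log2 CPM deviations from the batch and medium mean over 29 libraries is a description, since all genes of a library share its depth and scaling. It was 0.78 between HSPA5 and HSP90B1, 0.65 between CRELD2 and SDF2L1 and 0.56 between SDF2L1 and HYOU1. It was -0.63 between SDF2L1 and DNAJB9 and -0.62 between CRELD2 and HSP90B1. MANF was between 0.00 and 0.17 with each of the other 7, although over the raw libraries, batches included, its correlation with HSPA5 was 0.91. The genes most like MANF by these deviations were RPF1 (0.79), SNX3 (0.78), COPS3 (0.76), BUD31 (0.73) and DYNLL1 (0.72). Those most like HSPA5 were XRCC6 (0.84), RTN3 (0.84), CFDP1 (0.83), PSMD11 (0.82) and MRFAP1 (0.82), with HSP90B1 at rank 34 of 12301 genes. The middle 95% of the genes ranked lay between -0.56 and 0.66 with HSPA5, so correlations of that size were common for it. With MANF they lay between -0.40 and 0.46. No such range was taken for the other genes, so how unusual the correlations between those are is not known.

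**Figure D4:**
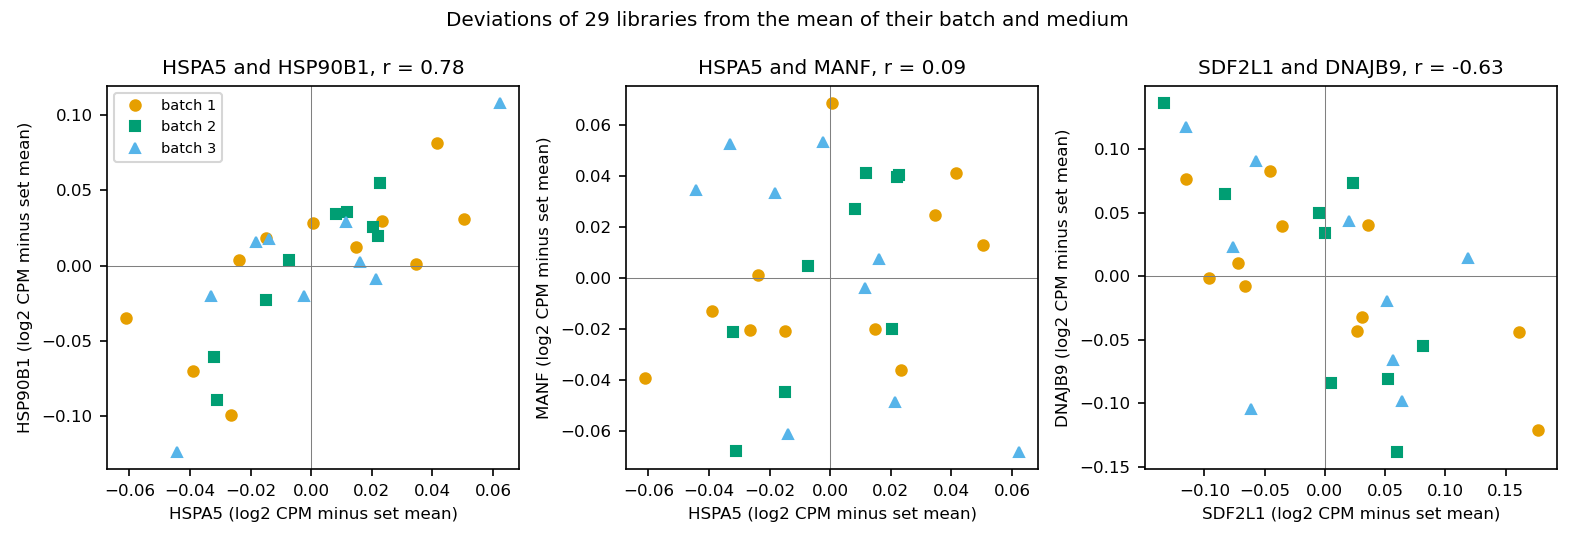
Each point is 1 of 29 libraries, plotted by the deviation of its log2 CPM from the mean of its batch and medium for 2 genes; colours and shapes are the 3 batches. HSPA5 and HSP90B1 deviated together (r = 0.78), HSPA5 and MANF did not (r = 0.09), and SDF2L1 and DNAJB9 deviated in opposite directions (r = -0.63).

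Other genes of the unfolded protein response were taken from lists chosen by function. Of 18 further ER chaperones and folding enzymes, 3 were called in MUT against EV, all higher, where 4.78% of all genes were called and 2.75% were higher. They were the disulfide isomerase PDIA4 (log2 0.16 ± 0.04 SE), the prolyl isomerase FKBP2 (0.23 ± 0.06) and ERO1B (0.27 ± 0.08), the β-cell-rich oxidase of ER disulfide formation. The list's median was 0.05, beside -0.00 over all genes. By the interaction test 15 of the 18 differed between batches, beside 42.4% of all genes. In batch 2 alone 7 were called higher and 3 lower, beside 24.1% and 23.8% of all genes. In batches 1 and 3 alone edgeR called 1 and 0, beside 1.4% and 0.049% (11 and 5 at an unadjusted p under 0.05). The medians there were 0.12 and -0.05. Over all batches edgeR called 0 of the 18 in MUT against WT (4 at an unadjusted p under 0.05, 3 by DESeq2) and 0 in WT against EV (4, and 0 by DESeq2). Between batches 17 of 18 were higher in batch 2 than in batch 1 (median 0.47), beside 33.1% of all genes, and between batches 2 and 3 the list held 1 gene higher and 7 lower in batch 3 (median -0.09). TXNDC5 (0.53 ± 0.03), PPIB (0.58 ± 0.03) and ERP44 (0.60 ± 0.03), all folding or retention factors of the ER, led it.

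ER-associated degradation, which returns misfolded proteins to the cytosol, had 4 of 15 genes called in MUT against EV, all higher, again beside 4.78% of all genes called and 2.75% higher. Among them were HERPUD1 (log2 0.17 ± 0.04 SE), SEL1L (0.17 ± 0.04) and SELENOK (0.15 ± 0.03), parts of the retrotranslocation machinery. The list's median was 0.09. By the interaction test 10 of the 15 differed between batches, beside 42.4% of all genes. In batch 2 alone 9 were called higher and 2 lower, beside 24.1% and 23.8% of all genes. In batches 1 and 3 alone edgeR called 1 and 0, beside 1.4% and 0.049% (7 and 3 at an unadjusted p under 0.05). The medians there were 0.08 and 0.00. Over all batches edgeR called 0 of the 15 in MUT against WT (1 at an unadjusted p under 0.05, 0 by DESeq2) and 0 in WT against EV (6, and 0 by DESeq2). Of 9 tested sensors and transducers, EIF2AK3, which encodes PERK (0.19 ± 0.05), and MBTPS1, the protease that cuts ATF6 (0.11 ± 0.03), were called in MUT against EV. Among the sensors and transducers 5 differed between batches by the interaction test, beside 42.4% of all genes. In batch 2 alone 4 were called higher (24.1% of all genes). In batches 1 and 3 alone edgeR called 0 (5 and 1 at an unadjusted p under 0.05). Of the 3 KDEL receptors, which return escaped ER proteins, edgeR called 0 in MUT against EV over all batches. There 2 had an unadjusted p under 0.05 and DESeq2 called 2. KDELR2 stood at 0.14 ± 0.04 and KDELR1 at 0.09 ± 0.03. In batches 1, 2 and 3 alone KDELR2 was at 0.17, 0.30 and -0.08 and KDELR1 at 0.10, 0.14 and 0.01.

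Of the lists examined other than the marker lists, that of the PERK and ATF4 arm had the largest median medium difference, and it was in batch 2. In WT against EV in that batch 12 of 12 tested genes rose, with a list median of log2 1.10 beside -0.01 over all genes and 38.9% of all genes called. In MUT against EV 10 of 12 were higher with a median of 0.38, beside 47.8% of all genes called and 24.1% higher. In MUT against WT 10 were lower with a median of -0.55, beside 33.1% called and 16.4% lower. DDIT4, a stress-induced inhibitor of mTORC1, was at 1.69 in WT against EV and 0.81 in MUT against EV, and SLC7A11, the cystine transporter, at 1.42 and 0.69. CHAC1 (1.69 and 0.73), TRIB3 (1.29 and 0.51) and DDIT3 (0.50 and 0.12, the latter not called), ATF4 targets that were named after their values were seen, had the same order. In the same WT libraries HSPA5 and MANF stood at log2 0.04 and -0.02 against EV, neither past the threshold, nor were HSP90B1 and CDNF. HYOU1 and DNAJB9 were called higher there, and CRELD2 and SDF2L1 lower. Of 15 genes of ER-associated degradation 9 were called higher and 1 lower (median 0.19). Of 18 further ER chaperones and folding enzymes 7 were called higher and 3 lower (median 0.09). Of all genes 19.6% were called higher and 19.3% lower. In batches 1 and 3 edgeR called 0 of the list in WT against EV (4 and 1 at an unadjusted p under 0.05) and 0 in MUT against EV (0 and 0). Over all batches SLC7A11 was the 1 gene called in WT against EV (0.63 ± 0.15, edgeR adjusted p = 0.0472).

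**Figure D5:**
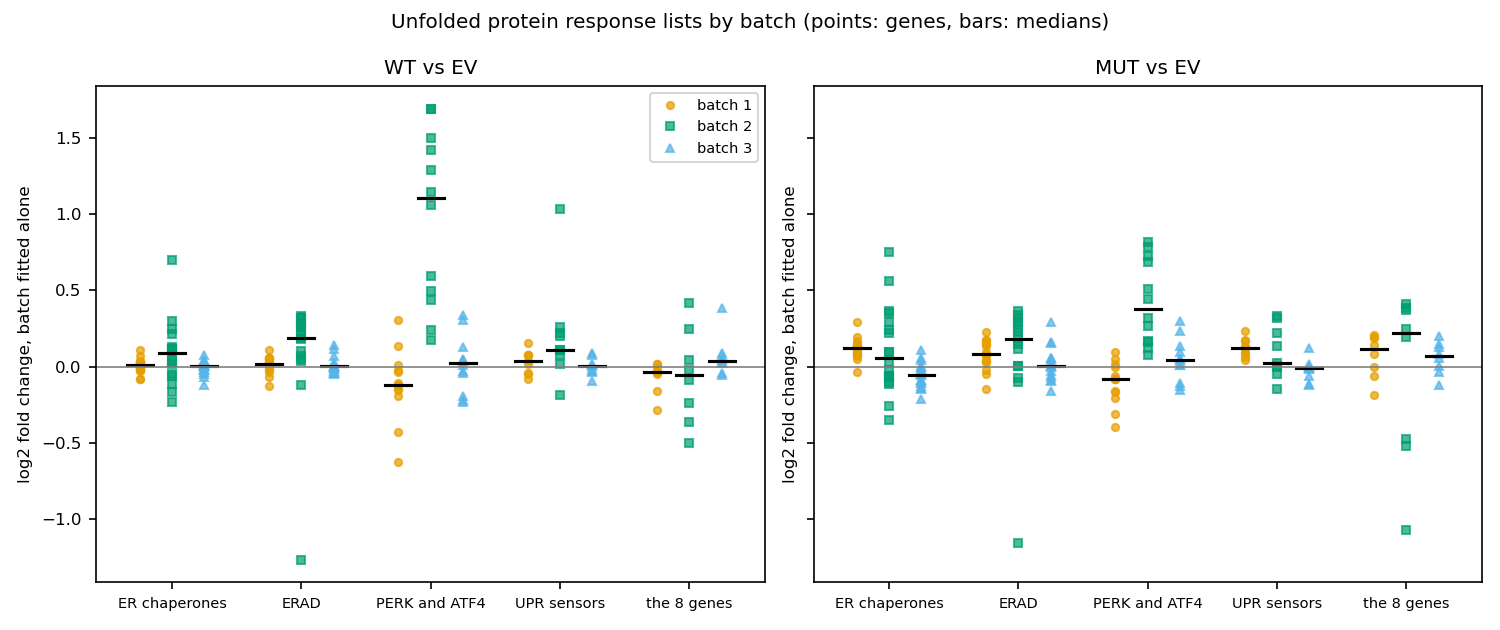
Log2 fold change (vertical axes) of every tested gene of 4 unfolded protein response lists and of the 8 genes, for WT against EV and MUT against EV, with each batch fitted alone; points are genes, bars are list medians. The PERK and ATF4 list stands out in batch 2, with medians of 1.10 for WT and 0.38 for MUT, while in batch 3 no list median was far from 0.

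Paralogues and cytosolic chaperones were examined beside the 8 genes. Of 11 paralogues outside the group, edgeR called 1 in MUT against EV, where 4.78% of all genes were called. It was TRAP1, the mitochondrial HSP90, lower in MUT than in EV (log2 -0.13 ± 0.04 SE). HSP90B1, at 0.12 ± 0.05, was not called. By the interaction test 10 of the 11 paralogues differed between batches in MUT against EV, beside 42.4% of all genes. In batch 2 alone 4 of them were called higher and 4 lower, beside 24.1% and 23.8% of all genes. SDF2, the paralogue of SDF2L1, was at 0.04 ± 0.03 in MUT against WT and rose by 0.64 ± 0.03 from batch 1 to batch 2, like SDF2L1. The cytosolic HSP90AA1 and HSP90AB1 rose by 0.93 ± 0.04 and 0.86 ± 0.04 between those batches. Of 11 tested genes of the cytosolic heat shock response, edgeR called 0 in MUT against EV and 0 in MUT against WT (0 at an unadjusted p under 0.05 and 0 by DESeq2 in both). In WT against EV it called 0, with 1 at an unadjusted p under 0.05 and 1 by DESeq2. Those counts are over all batches. In batch 2 alone 10 were tested, and 2 were called in MUT against EV, both lower. In MUT against WT 4 were called (1 higher, 3 lower) and in WT against EV 7 (4 higher, 3 lower). Of all genes 47.8%, 33.1% and 38.9% were called there. By the interaction test 4, 8 and 5 of the 11 differed between batches, beside 42.4%, 27.1% and 23.2% of all genes. Between batches 7 of 11 were higher in batch 2 than in batch 1, where 65.4% of all genes were called and 33.1% were higher. Among the 7 were HSPH1 (0.75 ± 0.04) and DNAJB1 (0.49 ± 0.03).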

How the data were processed

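The 29 EndoC-βH1 libraries were TruSeq Stranded mRNA libraries, per the labels. The deposited table holds estimated counts by Ensembl gene, unnormalized. Fastp and kallisto were used, per the submitters' processing notes. Sources used here give no version, build or annotation. Kallisto divides reads between similar transcripts by estimation. Counts were rounded, filtered with filterByExpr by medium and batch (22073 genes left) and scaled by TMM. They were tested with edgeR 4.0.16's quasi-likelihood test (limma 3.58.1, R 4.3.3) with batch and medium in the model (24 residual degrees of freedom), Benjamini-Hochberg adjusted over all genes, threshold 0.05. Robust estimation of the prior spread was not in the planned design. It was taken after both outputs had been seen, to match earlier work on these data, and is noted where it changes a call. SE is the log2 fold change divided by the square root of F. Medium by batch interactions were tested, and each batch was also fitted alone with its own filter. The out-of-sequence sample number of EV library 2 in batch 1 was taken as labelled. Symbols were matched by Ensembl identifier for 59369 of 66025 entries. All 8 genes had a promoter in the RefSeq table, and no protein sequences were used here. Totals set the counting error, which is relatively largest for CDNF.

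The genes and lists were chosen with earlier results of these data known. Besides the 8 genes, the text names per list and comparison up to 3 genes with the smallest p, the 5 genes most like MANF and HSPA5 (mean of at least 5 CPM), and marker genes. Alternatives were DESeq2 1.42.0, other scalings, filters and models, and leaving out batches or libraries. Testing was checked on simulated data. Figures used matplotlib 3.10.9.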

Additional observations from a re-analysis of the deposited data

Results flagged for a closer look

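Effects of a medium that differed between the batches by the interaction test (edgeR over 29 libraries, Benjamini-Hochberg adjusted over all genes) are listed here, 16 in all. Each triple of log2 fold changes gives batch 1, batch 2 and batch 3, every batch fitted by itself.

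For MUT against EV all 8 genes differed, where 42.4% of all genes did. MANF had 0.14, 0.38 and 0.15 (edgeR adjusted p = 0.00434), CDNF -0.18, -1.07 and 0.06 (p = 0.0012), CRELD2 -0.06, -0.52 and 0.13 (p = 1.18e-06) and SDF2L1 -0.00, -0.47 and 0.20 (p = 1.11e-05). HSPA5 had 0.21, 0.19 and 0.01 (p = 0.00256), HSP90B1 0.20, 0.25 and -0.12 (p = 0.000155), HYOU1 0.08, 0.37 and 0.08 (p = 0.00115) and DNAJB9 0.19, 0.41 and -0.03 (p = 0.00174). So 5 genes had their largest rise and 3 their largest fall outside batch 3. Comparisons with MUT bore on the choice of the genes, so these values and those of the next paragraph are a description.

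For MUT against WT 4 genes differed, where 27.1% of all genes did. MANF had 0.18, 0.40 and 0.07 (edgeR adjusted p = 0.00099), SDF2L1 0.16, -0.24 and 0.17 (p = 0.00212), HSPA5 0.19, 0.15 and -0.04 (p = 0.0017) and HSP90B1 0.18, 0.34 and -0.08 (p = 0.000229). SDF2L1 is the one whose batch 2 value lies against both other batches.

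For WT against EV 4 genes differed, where 23.2% of all genes did. CDNF had -0.28, -0.50 and 0.38 (edgeR adjusted p = 0.0184), CRELD2 -0.05, -0.36 and 0.09 (p = 0.000668), HYOU1 -0.03, 0.25 and 0.02 (p = 0.00288) and DNAJB9 -0.01, 0.41 and -0.06 (p = 0.000322). For CRELD2, HYOU1 and DNAJB9 the difference from EV was past the threshold in batch 2 and not in the others. No set of 4 to 10 libraries held 1 that stood far from the rest, in 40 sets tested. Sets of 3 libraries were too small for this check. Sets that pooled a medium over the batches spanned the batch differences, which can hide an outlying library.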

How the results depend on the processing

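The counts of the 8 genes past the threshold were 4, 1 and 0 for MUT against EV, MUT against WT and WT against EV, 8, 4 and 4 for their interactions with batch, and 5, 7 and 4 for batch 2 against 1, 3 against 1 and 3 against 2. Under 48 alternatives MUT vs EV gave 0 with no batch term, voom quality weights, summed profiles (which kept the genes of the filter above), batch 3 alone, without batch 2 and voom with correlated libraries. It gave 1 with only the 2 groups compared or batch 1 alone, 2 without batch 1, 7 without batch 3 and 8 in batch 2 alone, and 1 to 5 with 1 library left out. MUT vs WT gave 0 with no batch term, summed profiles, batch 3 alone and correlated voom. It gave 2 with a filter of 1 CPM, voom weights or without robust estimation, 3 with DESeq2 or without batch 3 and 6 in batch 2 alone. With 1 library left out it gave 1 to 3, with 3 without WT library 1, MUT library 2 or MUT library 3 of batch 3 and 2 without MUT library 1 of batch 3. WT vs EV gave 4 in batch 2 alone and 0 to 0 with 1 library left out. The interactions gave 2, 0 and 0 without batch 2, and 5 and 2 for MUT vs EV and MUT vs WT without batch 3; with 1 library left out they gave 8 to 8, 4 to 5 and 3 to 4. Summed profiles gave 4 for batch 3 vs batch 1 and 1 for batch 3 vs batch 2, and leaving out 1 library gave 5 to 6, 7 to 7 and 3 to 5 for the batch comparisons. Set against the values over all batches, those that changed sign and were called in either of the 2 fits were SDF2L1 in MUT vs WT, at -0.24 in batch 2 alone, and DNAJB9 in MUT vs EV, at -0.0329 in batch 3 alone; the cause was not tested. Signs that differ between single batches are among the triples given above. The interaction could not be fitted to summed profiles, which leave no residual degrees of freedom. The replicate block gave 3, 1 and 0 for the media, 8, 4 and 4 for the interactions and 5, 7 and 4 for the batches. Replicate numbers did not pair the libraries: deviations of 28 same-numbered pairs correlated at -0.051 to 0.081, with 0 above 0.1. Alternatives chosen after seeing the data were the fits without robust estimation, the filter by model columns and correlated voom. Depth limits CDNF, at 30 to 84 counts.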
